A study of Mus musculus with 4 samples.

Results

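The genes described are 9 classical targets of Gata1 in red blood cell precursors, namely *Hba-x*, *Hbb-y*, *Hbb-bh1*, *Klf1*, *Alas2*, *Slc4a1*, *Epor*, *Nfe2* and *Tfrc*, out of 22238 protein-coding genes of the mouse annotation. They were chosen by name, and the Gata4 peaks within 5 kb and within 50 kb of each gene body were collected from 2 peak lists on the mm9 build. These held 20410 peaks for wild-type (WT) Flk1(+) cells and 22733 peaks for Dnmt3a-/-Dnmt3b-/- (DKO) Flk1(+) cells. The question was whether Gata4 in mesoderm occupied loci that are known from the work of Gata1 in erythroid cells. Within 50 kb of the 9 genes there were 19 WT peaks and 36 DKO peaks, and within 5 kb there were 7 and 8.

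Gata4 and Gata1 belong to one family of zinc finger factors, and both read the DNA letters AGATAA or TGATAA, called the GATA motif below. Gata1 drives the globin, heme and membrane genes of red cell precursors, where it often sits beside the E-box factor Tal1 on a composite element made of CTG, a short spacer and the GATA motif. Gata4 is known for its work in heart, gut and primitive endoderm, and is not known as a factor of the red cell lineage. Flk1(+) mesoderm derived from ES cells is a progenitor population that can give rise to blood, vessel and muscle cells.

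The chromatin came from 4 libraries, with 1 library per condition. WT Flk1(+) cells (clone J1G4.2) and DKO Flk1(+) cells (clone 16G4.3) both carried Gata4GR, which is Gata4 fused to the ligand-binding part of the glucocorticoid receptor and driven by the ubiquitous CAG promoter. Both were grown on OP9 stroma to day 4.5, received 100 nM dexamethasone (Dex) for 3 hours to bring Gata4GR into the nucleus, and were collected with magnetic beads against Flk1. The study precipitated chromatin with antibodies against Gata4, and it reports that Flk1(+) cells also express their endogenous *Gata4*. The peaks were therefore not assigned to Gata4GR or to endogenous Gata4. The other two libraries, WT ES and DKO ES cells kept without Dex, served as the background, each for the list of its own genotype. Each Flk1(+) condition was thus a single clone and a single sample, so no comparison of WT with DKO takes account of a spread between samples, and none was tested. The lists do not give the depth of any library, and no interval or limit here rests on it. The study's methods state more mapped reads for the DKO than for the WT Flk1(+) library, and the part of this in any difference between WT and DKO peak counts was not tested. The depth of the ES libraries is unknown. They hold no expression values, so the labelled mesoderm could not be checked against its marker genes. Each peak comes with its window, which reaches 250 bp to either side of the position. Peak height is the top of the read density profile as deposited, and its scaling between libraries is not given in the sources used here. A site with equal signal in ES cells is not listed, since the authors kept a peak only where it stood at least 3.00 times above the ES library.

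Sequences under most of the peaks that carry the GATA motif are shown first. In these stretches Gata4 peaks and the letters read by Gata factors coincide near these genes. They are the mm9 plus strand, 5′ to 3′, cut to the motif matches and a short margin. Capitals mark the GATA motif, which reads TTATCT or TTATCA where it lies on the other strand. They also mark the CTG, or on the other strand the CAG, of a composite. A composite was taken as CTG followed after 7 to 9 bases by the GATA motif.
*Nfe2* intron, chr15:103082216-103082278, WT peak: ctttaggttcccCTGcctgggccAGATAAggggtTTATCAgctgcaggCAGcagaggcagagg
*Nfe2* start, chr15:103088961-103089001, WT and DKO peaks: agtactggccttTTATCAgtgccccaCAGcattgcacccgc
*Nfe2* intron, chr15:103080494-103080523, WT peak: agaaagaaagagAGATAAagaaagaaatcc
Beta-globin cluster, chr7:111025737-111025902, WT peak: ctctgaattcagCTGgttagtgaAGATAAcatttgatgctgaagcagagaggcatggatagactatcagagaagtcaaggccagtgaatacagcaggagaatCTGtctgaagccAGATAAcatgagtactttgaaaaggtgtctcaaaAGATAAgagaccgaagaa
*Tfrc* downstream, chr16:32637346-32637375, WT peak: ctaaggcagctgTTATCTcttgtaattcct
*Tfrc* upstream, chr16:32608193-32608222, DKO peak: gaattttagagcAGATAAgccaaaggtcaa
*Tfrc* upstream, chr16:32608485-32608514, the same DKO peak: taatctacaactTTATCAccctagtaaatc
*Slc4a1* upstream, chr11:102254245-102254274, DKO peak: cttggctagcgcAGATAAatacaacccgca
*Epor* downstream in *Tmem205*, chr9:21728714-21728743, DKO peak: agctagtggagaAGATAAggctggacagag

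Another set of sequences is shown because it holds the GATA motif at the annotated start of a member with no peak over it. The 250 bp to either side of the gene start held the motif in 6 of the 9 members (66.7%) and in 5188 of 22232 protein-coding genes (23.3%). The members were chosen as known targets of Gata1. Their start windows also had a lower median CpG number than those of all protein-coding genes. The part of either in the contrast of motif shares was not tested. Among the 6 members with the motif, a peak window covered the match at *Nfe2* alone, in both lists. Among the 5188 genes, a WT peak window covered it in 477 (9.19%) and a DKO peak window in 541 (10.4%). The stretches of the other members are given below in the same format. The match of *Hba-x* lies in its transcribed part and is not printed.
*Hbb-y*, 124 bp upstream of the start, chr7:111001866-111001895: acactgtgtttaTGATAAtgcacattagat
*Klf1*, 21 bp upstream, chr8:87425789-87425818: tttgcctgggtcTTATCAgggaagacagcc
*Alas2*, 39 bp upstream, chrX:146981862-146981891: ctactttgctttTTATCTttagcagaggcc
*Epor*, 49 bp upstream, chr9:21768057-21768086: caggctggggacAGATAAgctacagccacc

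The loci fell into groups by what was found within 5 kb. *Epor*, *Nfe2* and *Tfrc* had peaks in both lists, *Klf1* had peaks in the DKO list only, and *Hba-x*, *Hbb-y*, *Hbb-bh1*, *Alas2* and *Slc4a1* had none in either list. In WT Flk1(+) cells this made 3 of 9 members (33.3%), beside 39.4% of all protein-coding genes. In DKO Flk1(+) cells it made 4 of 9 (44.4%), beside 49.1% of all genes. Peaks of both lists lay within 5 kb of 3 members, beside 31.9% of all genes. Counting only peaks with the GATA motif, 2 members remained in WT, *Nfe2* and *Tfrc*, beside 20.7% of all genes, and the same 2 in DKO, beside 19.3%. Within 50 kb the counts were 7 of 9 members in WT (77.8%, beside 67.1% of all genes) and 6 of 9 in DKO (66.7%, beside 70.4%). With 9 genes, 1 member counts for more than any of these gaps. The members are short, with a median gene length of 4678 bp against 15512 bp over all protein-coding genes, so their windows at 5 kb are narrower than most.

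**Figure D1:**
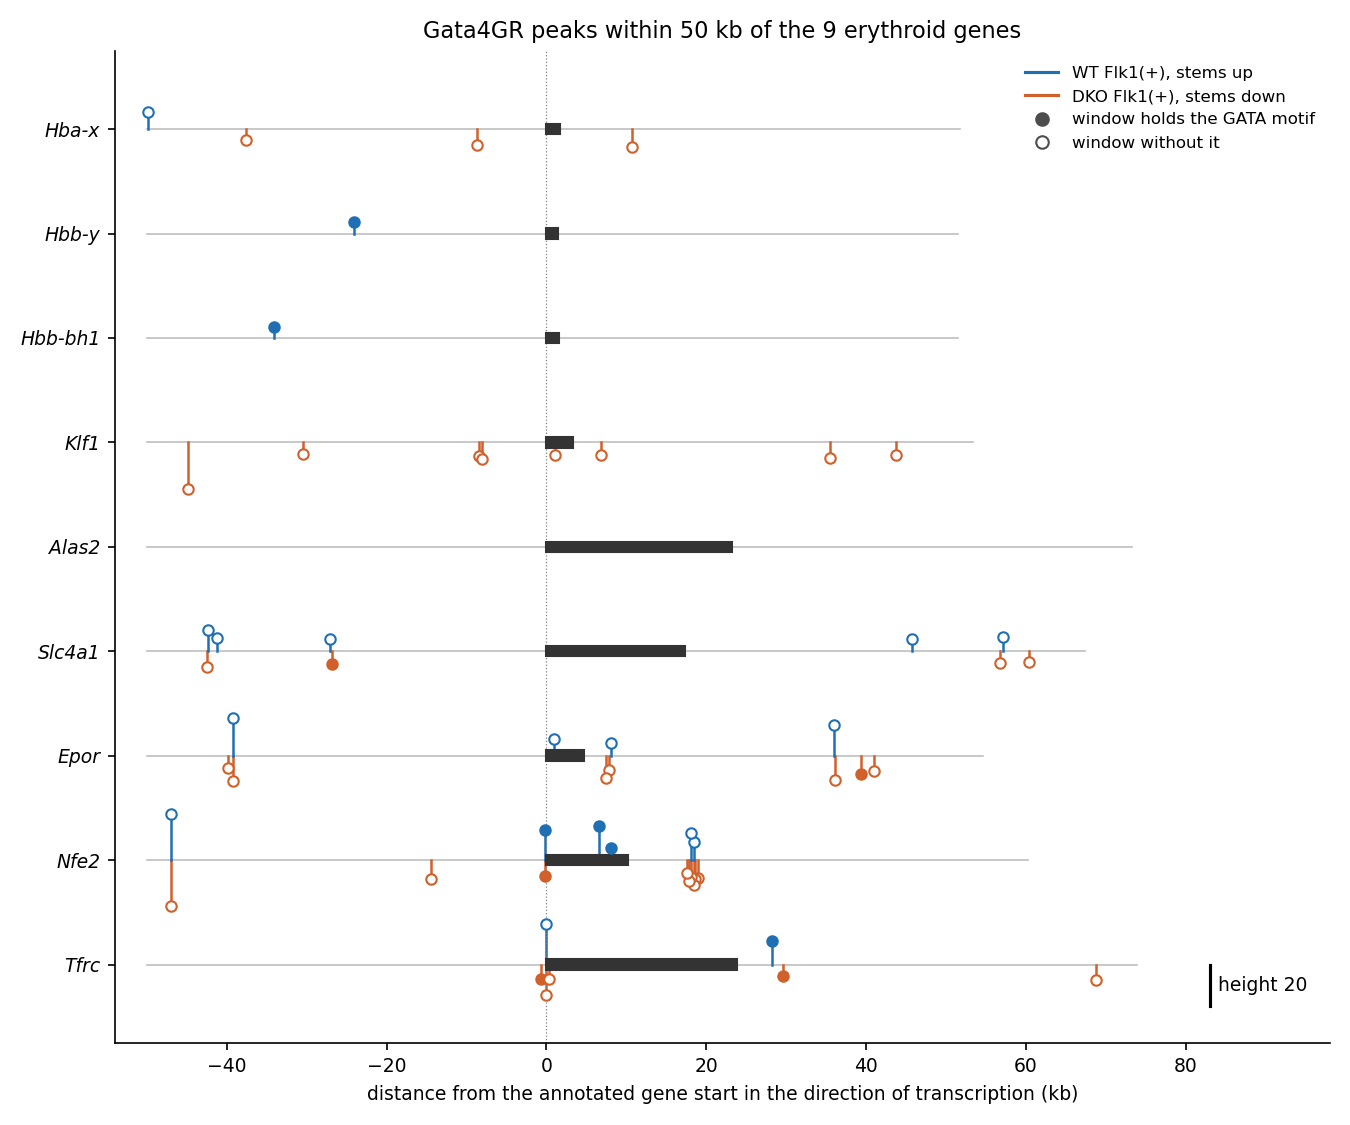
Peaks within 50 kb of each of the 9 genes, by distance from the gene start in kb along transcription (x axis). Each row is a gene with its body as a dark bar, stems give peak height (WT up in blue, DKO down in orange, scale bar of height 20), and filled circles mark windows with the GATA motif. Filled circles sit at *Nfe2*, *Tfrc*, the beta-globin cluster, *Slc4a1* and *Epor*, while all 8 peaks around *Klf1* are open and from DKO cells, and *Alas2* has no peak.

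The globin genes came first in the order of roles. *Hba-x* encodes the embryonic alpha-like chain (chr11:32176400-32178116). Neither list had a peak within 5 kb. In DKO Flk1(+) cells the closest lay 8705 bp upstream at the start of *Nprl3*, with a height of 7.70 there and 1.64 in DKO ES cells. *Nprl3*, the gene next to the alpha-globin cluster, is known to carry the distal alpha-globin enhancers in its introns. A second DKO peak lay in an intron of *Nprl3*, 37645 bp upstream of *Hba-x*, with a height of 5.16 against 1.52 in ES cells, near the bottom of the list (height percentile 6.67). Its position was not compared with those of the enhancers. The tallest of the 3 DKO peaks, at a height of 8.54 against 2.77, lay in a coding exon of *Hbq1b*, a theta-type globin gene, 8953 bp beyond the end of *Hba-x*. In WT Flk1(+) cells the only peak within 50 kb was at the edge of the window, 49876 bp upstream at the start of *Mpg*, with a height of 7.98 against 2.47. None of these 4 windows held the GATA motif, although 93 motif matches lay in the *Hba-x* window of 101.7 kb. The alpha-globin and theta-globin genes are duplicated, and the authors' filter on repetitive mapping bears on such copies.

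*Hbb-y* (chr7:111000259-111001754) and *Hbb-bh1* (chr7:110990150-110991678) encode the embryonic beta-like chains and lie in 1 cluster, so they share 1 peak. In WT Flk1(+) cells it lay 24078 bp upstream of *Hbb-y* and 34154 bp from *Hbb-bh1*, between genes, and 4923 bp from the nearest annotated transcript start. Its height was 5.29 in WT Flk1(+) and 0.695 in WT ES cells, a height percentile of 8.18 in the WT list. The window held 3 GATA motif matches and 2 composites, as printed above, and only 3 CpG. It was thus a small peak, but its letters were the densest in GATA motifs of the 19 WT peaks near the members. No DKO peak was listed within 50 kb of either gene, and the nearest, 57013 bp from *Hbb-y*, had a height of 17.2.

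The transcription factor genes *Klf1* and *Nfe2* carried different peaks. *Klf1* encodes the Krüppel-type factor that activates adult beta-globin (chr8:87425827-87429194). It had 8 DKO peaks within 50 kb and no WT peak, the nearest WT position being 54666 bp away at a height of 12. A DKO peak in the coding exon of *Klf1*, 1068 bp after the start, had a height of 6.16 in DKO Flk1(+) and 1.53 in DKO ES cells and held 43 CpG. Another lay 3432 bp beyond the gene at the start of *Dnase2a*, at 6.23 against 1.27. The tallest lay 44825 bp upstream in *Farsa*, close to its start, at 22.1 against 6.76, above 98.4% of the DKO list by height. The ES height there stood above 99.7% of the list. None of the 8 windows held the GATA motif, while their CpG number ran from 7 to 43, and 6 of the 8 lay within 1 kb of a transcript start.

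The counts at *Klf1* stand on a chromosome with more DKO than WT peaks throughout. Chromosome 8 held 2108 DKO and 1365 WT peaks, a ratio of 1.54, beside 1.08 over the other chromosomes. The share of DKO peaks with an overlapping WT peak was 34.6% on chromosome 8 and 45.1% in the whole list. The median ES height at WT peaks was 1.98 on chromosome 8 and 1.68 over the list, and at DKO peaks 1.62 and 1.58. The part of this difference in the *Klf1* counts was not tested, and the peak lists hold no coverage from which the copy number of the chromosome in either clone could be checked.

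*Nfe2* encodes the p45 subunit of the factor that binds globin enhancers (chr15:103078643-103088834). It had the most motif-bearing peaks of the 9 genes, with 3 WT peaks and 1 DKO peak within 5 kb, each with the GATA motif. The tallest, in an intron and 90 bp from the start of a shorter annotated transcript, had a height of 16.4 in WT Flk1(+) and 4.11 in WT ES cells, above 89.5% of the WT list. Its window held 2 GATA motifs that face each other across 5 bases, each with its own CTG at a spacing of 8 bases, and 2 CpG. The motif matches lay 33.5 and 44.5 bp from the peak position. No DKO peak was listed within 6786 bp of it.

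At the *Nfe2* start both lists had a peak, 138 bp upstream in WT and 160 bp in DKO Flk1(+) cells. Its height was 14.2 in WT Flk1(+) against 3.97 in WT ES cells, and 7.57 in DKO Flk1(+) against 1.69 in DKO ES cells. The single motif match lay 3.50 bp from the WT position and 18.5 bp from the DKO position, and formed a composite. The ratio of DKO to WT height was 0.534, the lowest of the 11 pairs near the members and higher than in 20.2% of all pairs, while the ratio of enrichments over ES cells was 1.26. A further WT peak in the intron was weak, at 5.83 against 1.90 and rank 20334 of 20410. Its motif match lay 224 bp from the position, and a match to AGATAG, not counted as the motif, lay 30.5 bp from it. The WT ES heights at the tall intronic peak and at the start lay above 94.3% and 93.7% of the ES heights of the WT list. The DKO ES height at the start lay above 56.5% of those of the DKO list. The tallest peaks within 50 kb were a shared pair 46968 bp upstream of *Nfe2*, between genes, at 22.2 in WT and 21.9 in DKO Flk1(+) cells against 4.12 and 6.80. They held 60 and 59 CpG and no GATA motif.

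*Alas2* and *Slc4a1* had no peak within 5 kb. *Alas2* (chrX:146981918-147005181) encodes the erythroid form of the enzyme that starts heme synthesis. Its nearest peaks were 242527 bp away in WT and 242506 bp in DKO Flk1(+) cells, although its 123.3 kb window held 195 GATA motif matches, the most of the 9 windows, and 7 composites. Chromosome X held 337 WT and 246 DKO peaks in all. *Slc4a1* (chr11:102210138-102227517) encodes band 3, the anion exchanger of the red cell membrane. It had 5 WT and 4 DKO peaks within 50 kb, none nearer than 26856 bp. The nearest were a pair close to the start of *Rundc3a*, at heights of 6.05 in WT and 6.31 in DKO Flk1(+) cells against 1.94 and 2.05 in ES cells. The DKO window held 1 GATA motif match, 114 bp from the position and outside the WT window. The tallest were another pair near *Slc25a39*, at 10.2 in WT and 7.62 in DKO Flk1(+) cells against 1.49 and 2.10. *Slc25a39* encodes a mitochondrial carrier. The other peaks of the locus lay at *Ubtf*, which encodes a ribosomal RNA gene transcription factor, and *Slc25a39*.

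*Epor* encodes the erythropoietin receptor (chr9:21763343-21768020). A WT peak lay in its intron, 986 bp after the start, at a height of 7.93 in WT Flk1(+) and 2.24 in WT ES cells, with 31 CpG and no GATA motif. The motif 49 bp upstream of the start, printed above, lay 1035 bp from the WT position and 7556 bp from the nearest DKO position, outside both windows. Beyond the gene, 3 peaks lay at the start of the neighbouring gene *2310047B19Rik*. The WT peak there, 3355 bp from *Epor*, had a height of 6.25 against 1.58. The DKO peaks, 3196 and 2830 bp from *Epor*, had heights of 6.74 against 1.19 and 10.7 against 3.33. Within 50 kb the tallest was 18.1 in WT and 12.1 in DKO Flk1(+) cells, a shared position at the start of *Prkcsh*. The 1 motif-bearing peak of the locus was a DKO peak in an intron of *Tmem205* 34659 bp away, at 8.56 against 0.902.

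*Tfrc* encodes the transferrin receptor, which takes up iron in red cell precursors and in most dividing cells (chr16:32609006-32632880). Both lists had a peak about the same position upstream of the start, 110 bp away in WT and 113 bp in DKO Flk1(+) cells. Its height was 19.5 in WT Flk1(+) against 4.31 in WT ES cells, and 14.6 in DKO Flk1(+) against 3.96 in DKO ES cells. It held no GATA motif and 41 CpG in the WT and 40 in the DKO window. Its centre, chr16:32608866-32608926, is printed with CpG in capitals, as the tallest member peak within 5 kb without the motif.
*Tfrc* start, WT peak: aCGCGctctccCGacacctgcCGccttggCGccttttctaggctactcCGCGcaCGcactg
The motif lay in smaller peaks to the sides. A DKO peak 694 bp upstream had a height of 6.87 against 0.999, with 2 motif matches at 104 and 188 bp from its position. Matches to AGATAG, not counted as the motif, lay 12.5 and 67.5 bp from that position. A further DKO peak, 319 bp after the start, had a height of 7.09 against 1.98 and no motif. Downstream of the gene, a WT peak 4393 bp past the end had a height of 11.3 against 3.50 with 1 match, and a DKO peak 5759 bp past the end had 5.45 against 1.61 with 3 matches. These last positions are 1366 bp apart and were not counted as shared.

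Peaks were gathered over the 50-kb windows of all 9 genes, which merge into 8 intervals of 0.896 Mb. They made 21.2 WT and 40.2 DKO peaks per Mb, beside 10.3 and 12.7 per Mb over the windows of all protein-coding genes. These intervals also held more gene starts, 49.1 per Mb against 13.5. Of the member peaks, 14 of 19 in WT (73.7%, 95% Wilson interval 51.2 to 88.2) and 26 of 36 in DKO Flk1(+) cells (72.2%, 56.0 to 84.2) lay within 1 kb of a transcript start. The whole lists had 27.9% and 49.9%. All intervals given cover counting error only, and neighbouring peaks at 1 start are not independent. The 6 DKO peaks at the shared start region of *Cbx5* and *Hnrnpa1* near *Nfe2* are such a cluster.

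The GATA motif was in 5 of 19 WT windows near the members (26.3%, 11.8 to 48.8), beside 61.9% of the WT list. It was in 5 of 36 DKO windows (13.9%, 6.08 to 28.7), beside 38.1% of the DKO list. Windows 2 kb to either side of all peaks held it in 41.1% of WT and 38.8% of DKO cases. Split by distance to a transcript start, the gap narrowed in WT. Within 1 kb of a start the motif was in 2 of 14 WT member peaks (14.3%, 4.01 to 39.9) beside 22.9% of such peaks in the list. Beyond 1 kb it was in 3 of 5 (60.0%, 23.1 to 88.2) beside 77.0%. In DKO the values were 3 of 26 (11.5%, 4.0 to 29.0) beside 15.0%, and 2 of 10 (20%, 5.67 to 51.0) beside 61.1%. Without the *Klf1* window the DKO share was 5 of 28 (17.9%).

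**Figure D2:**
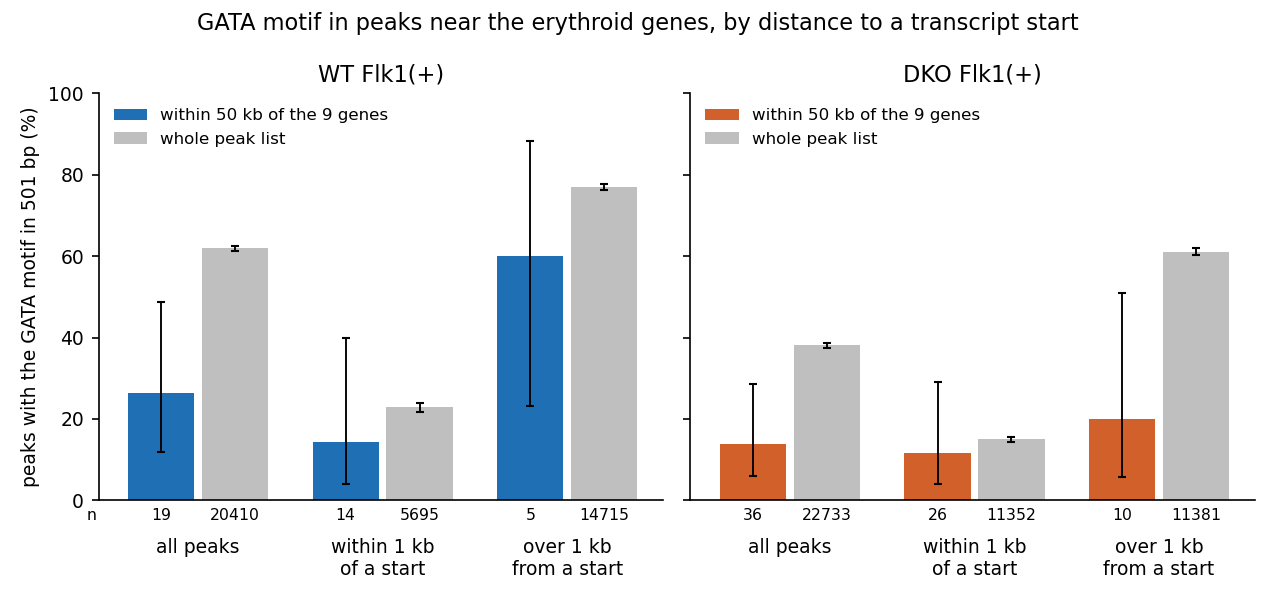
Share of peak windows with the GATA motif (y axis, %), for all peaks and for those within or over 1 kb from a transcript start, in WT (left) and DKO (right) Flk1(+) cells. Coloured bars are peaks within 50 kb of the 9 genes, grey bars the whole list, error bars 95% Wilson intervals and numbers below the bars the peaks counted. The member share is 26.3% against 61.9% in WT and 13.9% against 38.1% in DKO. The member intervals within 1 kb of a start include the share of the list. Over 1 kb from a start this holds in WT, while the DKO interval, 5.67 to 51.0, lies below the 61.1% of the list.

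The composite was found in 3 of 19 WT member peaks (15.8%, 5.52 to 37.6), beside 9.35% of the WT list, and in 1 of 36 DKO member peaks (2.78%, 0.492 to 14.2), beside 6.06% of the DKO list. The flanking windows had it in 3.01% and 3.14%. The 3 WT peaks were the intronic and start peaks of *Nfe2* and the beta-globin peak, and the DKO peak was that of the *Nfe2* start. Read the other way, the member windows held 919 GATA motif matches, of which 8 lay under a WT peak (0.871%) and 8 under a DKO peak (0.871%). Over all chromosomes with a peak the shares were 0.588% of 3718813 matches in WT and 0.389% in DKO Flk1(+) cells. Of 67 composites in the member windows, 5 lay under a WT peak (7.46%) and 1 under a DKO peak (1.49%), beside 1.12% and 0.808% of 178419 composites over the chromosomes. The 5 composites come from the 3 WT peaks named, so they are not 5 separate sites. The chromosomes include stretches far from genes, while the member windows held more peaks per Mb than the windows of all genes, as given above. The part of peak density in these shares was not tested.

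In the other member peaks CpG were dense. The median CpG number per window was 30 in WT member peaks against 8.0 in the WT list, and 26.5 in DKO member peaks against 21.0 in the DKO list. Within the WT member peaks the 5 with the GATA motif had 2 to 13 CpG and the 14 without it 22 to 60, with no overlap. The CpG numbers of the whole lists were not split by motif. This gap can therefore not be called particular to the member loci. In DKO the motif-bearing peaks had 7 to 14 CpG and the others 3 to 59, which did overlap. Flk1(+) heights had a median of 8.43 in WT member peaks against 7.74 in the list, and 7.60 against 6.91 in DKO. The ES heights at the same positions had medians of 2.40 against 1.68 and 1.77 against 1.58. The enrichment over ES cells was accordingly lower, at 3.57 against 4.53 in WT and 3.97 against 4.37 in DKO. How far start-proximal signal shared with ES cells enters these peaks was not tested.

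**Figure D3:**
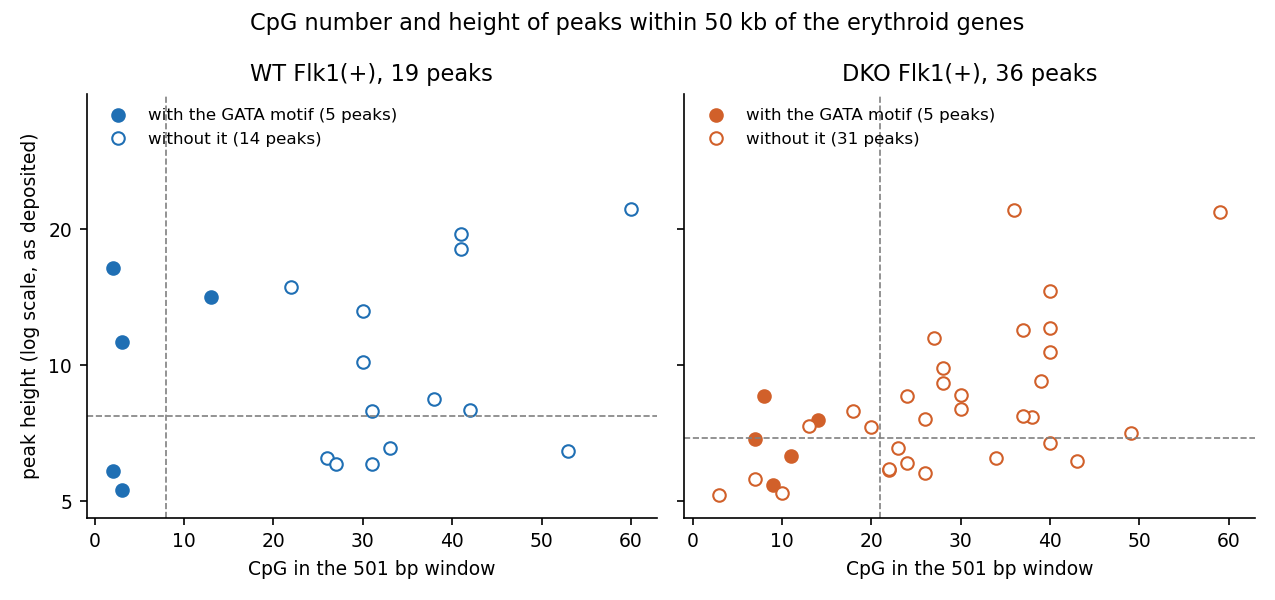
Number of CpG in the peak window (x axis) and peak height as deposited (y axis, log scale) of the 19 WT and 36 DKO peaks within 50 kb of the 9 genes. Filled points hold the GATA motif and dashed lines are medians of the whole lists. The 5 motif-bearing WT peaks have 2 to 13 CpG and the 14 others 22 to 60, with no overlap, whereas the DKO groups overlap. The whole lists were not split by motif.

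Shared peaks were counted where the windows of a WT and a DKO peak overlapped. Of the WT member peaks 11 of 19 (57.9%, 36.3 to 76.9) had an overlapping DKO peak, beside 45.6% of the WT list. Of the DKO member peaks 16 of 36 (44.4%, 29.5 to 60.4) had an overlapping WT peak, beside 45.1%. Only 1 of the 5 motif-bearing WT peaks was shared, the *Nfe2* start, while 10 of the 14 WT peaks without the motif were shared. The WT list had 38.9% and 56.5% of such peaks shared. In DKO member peaks 2 of 5 with the motif and 14 of 31 without it were shared, beside 56.3% and 38.2% of the DKO list. The 11 nearest pairs had a median ratio of DKO to WT height of 0.775, from 0.534 to 1.43. Over all 8489 pairs of the lists the median was 0.806, with 0.357 and 1.47 as the 5th and 95th percentiles, so each of the 11 ratios fell inside this range. As ratios of enrichment over ES cells the medians were 1.15 near the members and 1.05 over all pairs, so the direction of the DKO to WT ratio depended on whether ES height was divided out. The highest ratio, 1.43, was at the shared start region of *Cbx5* and *Hnrnpa1*, at 8.43 in WT and 12 in DKO Flk1(+) cells.

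**Figure D4:**
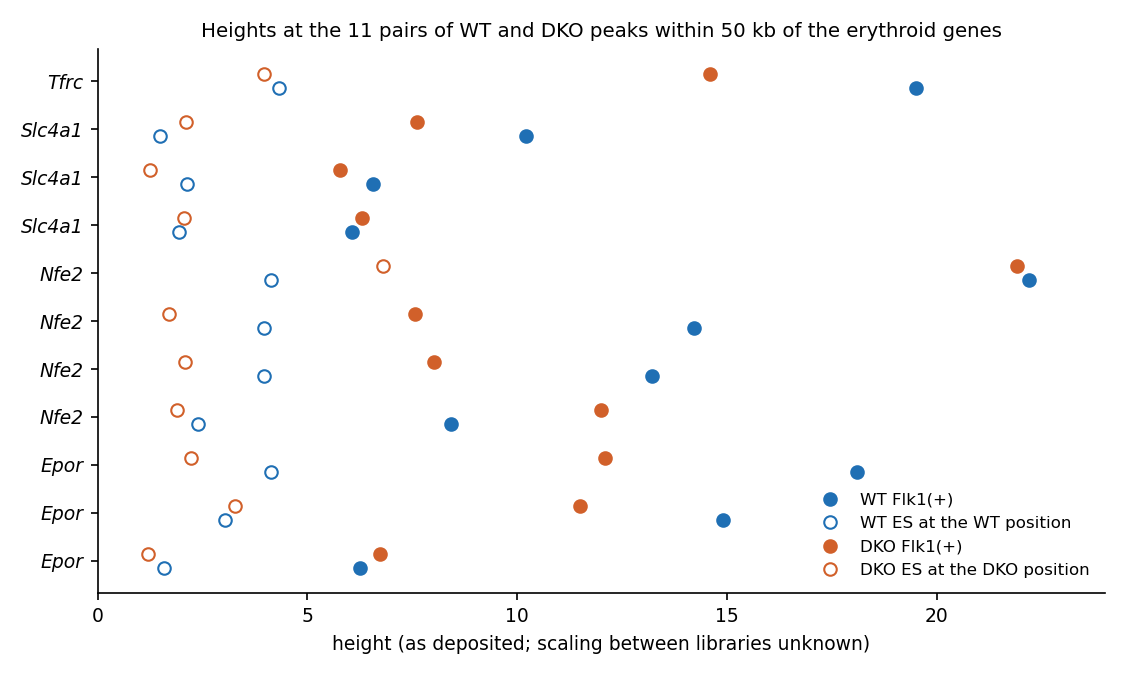
Heights as deposited (x axis) at the 11 pairs of overlapping WT and DKO peaks, each row a pair named by its member gene. Filled points are Flk1(+) cells and open points ES cells of the same genotype at the same position. The WT height is above the DKO height in 8 of the 11 pairs with a median ratio of 0.775, whereas by enrichment over ES cells WT is higher in 5 and DKO in 6, and every Flk1(+) point lies well to the right of its ES point, as the calling of peaks requires.

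A wider list of erythroid genes was described for context. Of its 67 symbols 66 were matched, and *Ahsp* was not. A peak lay within 5 kb of 34 genes in WT (51.5%) and 39 in DKO Flk1(+) cells (59.1%), beside 39.4% and 49.1% of all genes. Without the 9 members it was 31 (54.4%) and 35 (61.4%) of 57. Of the 66 genes 27 had peaks of both lists, beside 31.9% of all genes. The globins were lowest, with 0 of 9 genes in WT and 2 of 9 in DKO, where *Hbq1b* and *Hba-a1* shared the 1 peak described above. Genes for transcription factors and cofactors were highest in DKO, with 12 of 14, and had 9 of 14 in WT. The membrane and cytoskeleton genes had 11 of 16 in WT and 6 of 16 in DKO, the class with the larger count in WT. A motif-bearing peak lay near 9 of these 16 in WT and 4 in DKO, beside 20.7% and 19.3% of all genes. With 1 library per genotype these counts were not tested against each other. Distance was counted from the gene body, so long genes have wider windows. Within 5 kb of the gene start, the wider list had 26 genes with a WT peak and 31 with a DKO peak. The share of all genes by that distance is not given. Gene lengths in the wider list were not compared with those of all genes.

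**Figure D5:**
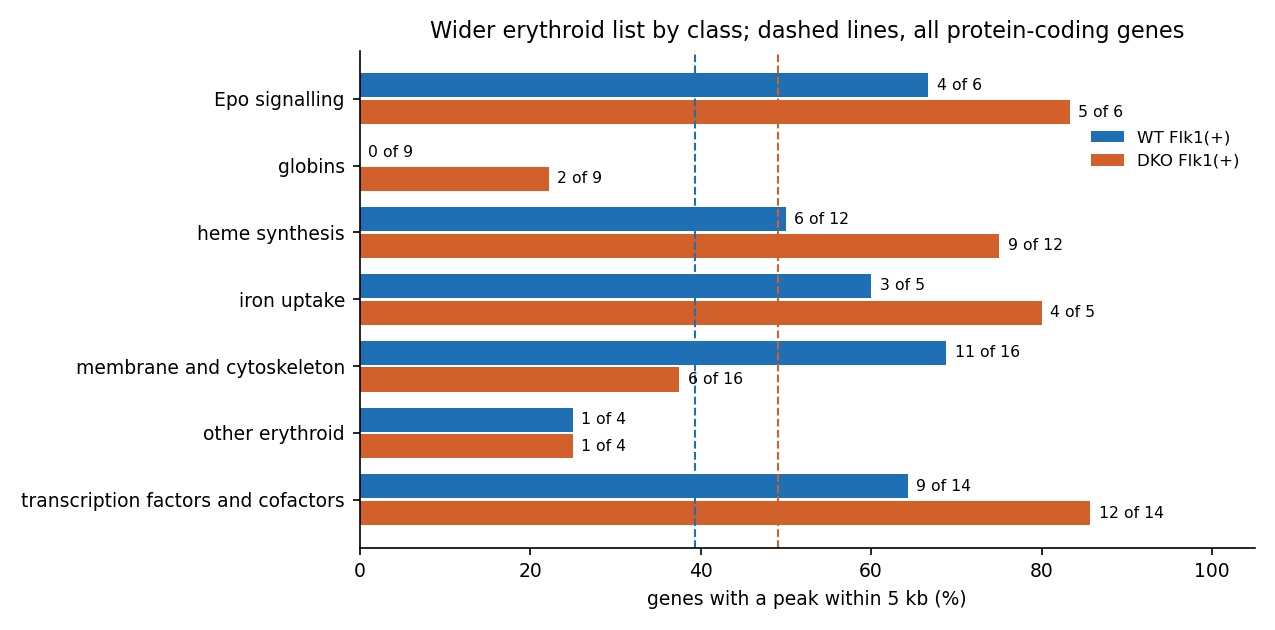
Share of genes with a peak within 5 kb (x axis, %) in each class of the wider erythroid list, for WT (blue) and DKO (orange) Flk1(+) cells, with the number of genes beside each bar. Dashed lines give the share of all protein-coding genes, 39.4% in WT and 49.1% in DKO. The globins lie lowest with 0 and 2 of 9, and membrane and cytoskeleton genes have 11 of 16 in WT and 6 of 16 in DKO.

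By the tallest peak of each gene, *Zfpm1* and *Lyl1* stood first in the wider list in both WT and DKO. Other regulators are given with them, and not all of these stood above the genes of other classes. *Zfpm1*, which encodes the Gata cofactor FOG-1, held the tallest WT peak, in its intron, at 71.8 against 10.6 in WT ES cells, with 4 GATA motif matches. A DKO peak at the same site had a height of 36.8. The tallest DKO peak of *Zfpm1* was elsewhere in the intron at 41.3 against 3.20, and the gene had 19 WT and 25 DKO peaks. *Lyl1*, a relative of *Tal1*, had a shared peak close to its start at 62.6 in WT and 64.5 in DKO Flk1(+) cells against 13.0 and 4.30, with 2 motif matches. Both genes lie on chromosome 8, whose peak numbers are given above. *Runx1*, needed for definitive blood, had its tallest peak in an intron at 32.2 in WT and 11.5 in DKO Flk1(+) cells against 4.51 and 0.838 in ES cells, with 6 motif matches. *Tal1* had a shared intronic peak with the motif at 14.7 in WT and 9.39 in DKO Flk1(+) cells against 3.38 and 1.73. *Gata2* had a shared peak without the motif at 21.1 and 15.6 against 4.97 and 3.15. *Gata1* had no WT peak within 5 kb and 1 DKO peak in its intron, at 7.73 against 1.35, with 4 motif matches and 2 composites.

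Among heme synthesis genes *Uros* and *Ppox* had motif-bearing shared peaks. That of *Uros* lay inside the gene body, 43 bp from an annotated transcript start, at 14.8 in WT and 6.36 in DKO Flk1(+) cells. That of *Ppox* lay at its start, at 11.5 in WT and 11.9 in DKO Flk1(+) cells. *Urod*, *Slc25a37* and *Slc25a38*, of heme synthesis and its mitochondrial supply, had shared peaks without the motif. Among membrane and cytoskeleton genes *Add2*, encoding beta-adducin, had the tallest, at 24.9 in WT and 14.1 in DKO Flk1(+) cells against 0.681 and 1.17 in ES cells, with 2 motif matches. *Epb4.1* and *Spnb1*, of the spectrin skeleton, had motif-bearing shared peaks, and *Ermap* and *Slc2a1* shared peaks without the motif. *Ank1*, encoding ankyrin, had 5 WT peaks and no DKO peak, the tallest at 20.2 against 3.67. *Fth1*, the ferritin heavy chain gene, had a motif-bearing WT peak in its intron at 22.1, which overlapped a DKO peak at 8.15. Its tallest DKO peak, at 10.5, was another without the motif. *Bcl2l1*, a survival gene downstream of *Epor*, had a shared peak at 12.8 in WT and 6.33 in DKO Flk1(+) cells, and *Car2*, carbonic anhydrase, one at 6.38 and 8.56. The tallest DKO peak of *Bcl2l1*, at 11.3, and the tallest WT peak of *Car2*, at 7.08, lay at other positions.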

How the data were processed

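Gata4 ChIP-seq of WT and DKO Flk1(+) cells with Dex and of WT and DKO ES cells without Dex was analysed, with 1 library per condition. Per the labels and the study's methods, reads were processed with CASAVA 1.8.1 and cutadapt and mapped to mm9, and the authors called peaks in the Flk1(+) libraries, with ES cells of matching genotype as control. The aligner's settings and the handling of duplicate reads are not given in the sources used here. The deposited signal is the height of the authors' density profile in the Flk1(+) and in the ES library. The deposited enrichment is the ratio of these heights, with an ES height below 1 taken as 1. The lowest height was 5.00 and the lowest enrichment 3.00. The −log10 q-value in the deposited lists was not used, and the deposited rank served as the score. Each position comes with the bases 250 bp to either side, which equalled the mm9 reference in 100% of peaks. No column names a library, so the lists were assigned to genotypes by the number of peaks that the study states. The deposited names of the lists state the same genotypes.

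Gene positions were those of GENCODE vM1, where the longest of several entries with 1 symbol was used. Distance was counted from the gene body. Peaks whose windows overlapped, with positions within 500 bp, counted as shared. AGATAA and TGATAA, and the composite, were searched on both strands. Shares carry 95% Wilson intervals, which cover counting error only. No test was run, since each condition has 1 library. The steps were tested on simulated peaks. The members, the wider erythroid list and all rules were chosen with earlier results of these data known. The genes named are the members with the peaks within 5 kb, the nearest and tallest within 50 kb and those with a composite, and genes of the wider list with a shared peak or the tallest peak of a class. A gene that the rule names and the sequence of a motif-bearing peak are not reported here. *Gata1*, *Ank1* and *Hba-a1* were named beside them after their values were seen. Other distances, definitions of the motif and of shared peaks, and the better-scoring part of each list were tried as alternatives. Python 3.11.15, NumPy 2.4.6, pandas 2.3.3 and Matplotlib 3.10.9 were used.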

Additional observations from a re-analysis of the deposited data

How the results depend on the processing

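Of 44 alternative values for 13 results, 31 stayed within 1.5 times the main count or, for shares, within its counting interval. For ratios the quartiles of the 11 pairs were taken as the limit. Among the counts, those of members at 5 kb moved least. With 10 kb, distance from the start or the authors' gene names, WT stayed at 3 members and DKO lay between 3 and 5. For the wider list, 39 genes in WT and 44 in DKO had a peak with 10 kb. With distance from the start these counts were 26 and 31. The shares of all genes under these settings are not given. In the better-scoring part of each list, that is the peaks ranked above the median, 4 members had a WT peak within 50 kb. There, 23 genes of the wider list had a WT peak and 21 a DKO peak within 5 kb. In the same part, 8 WT and 18 DKO peaks lay within 50 kb of the members. With 20 kb in place of 50 kb, 3 members had a WT peak, and 9 WT and 20 DKO peaks remained. With 100 kb there were 38 and 79 peaks. The share of DKO member peaks with an overlapping WT peak fell to 19.4% with positions within 100 bp and was 22.2% in the better-scoring part of both lists. The share of WT member peaks with a DKO partner was 87.5% when only the WT list was cut by score, from 8 peaks. The median DKO to WT ratio was 1.15 by enrichment in place of height, on the other side of 1. The GATA motif shares stayed within their intervals under every alternative tried. No paired analysis was possible because each condition has 1 library and none carries a replicate number, and for the same reason no library could be left out. The lists give no depth, so a locus without a peak is one where none was listed, not one shown to be unbound.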
